A study of Rattus norvegicus with 10 samples.

Results

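Ligands of the killer-cell receptor NKG2D and genes of MHC class I antigen presentation were followed in cortical neuron cultures of the rat under 2 inhibitors of histone deacetylases, which strip acetyl groups off histones. The 8 listed genes were Raet1e, Ulbp1, B2m, Tap1, Tap2, Nlrc5, Psmb8 and Psmb9. They were listed with the changes under the inhibitors in these same libraries known, so that those changes are given as a description and not as a test. Of the 8, 6 could be paired with 1 of the 32883 Ensembl genes of the deposited table, whereas the expression of B2m and Tap2 was not analysed here. The pairing used the rows at hand of a table of genes that the study called upregulated on these libraries, so that the 6 genes are those found among them. All 10 libraries came from cortices of newborn Wistar rats, grown as primary cultures that the study describes as holding both neurons and glia, and the inhibitors were added on day 14 in vitro and not washed out. The first experiment held 3 libraries of cultures treated with trichostatin A (TSA) at 100 nM, kept on for 19 h, and 3 of time-matched control cultures. The second held 2 libraries treated with sodium butyrate (NaB) for 24 h and 2 of their own controls. The NaB dose is 5 µM in the sample labels. The methods give the same figure in mM. Inhibitor, incubation time and experiment changed together between the experiments and cannot be told apart.

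NKG2D is an activating receptor of natural killer cells and of some T cells, and its ligands of the Raet1 and Ulbp families are MHC class I-like surface proteins that many cells show under stress. MHC class I molecules consist of a heavy chain, encoded in the rat by RT1 genes, and the light chain beta-2-microglobulin (B2m), and carry peptides of the cell's own proteins to its surface. These peptides are cut by the proteasome, in which Psmb8 and Psmb9 are inducible catalytic subunits, and are moved into the endoplasmic reticulum by the transporter made of Tap1 and Tap2. Nlrc5 is the transactivator of class I genes, as Ciita is of class II genes. Neurons are known for low levels of MHC class I.

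Tap1, Tap2, Psmb8 and Psmb9 are neighbours within the MHC on rat chromosome 20, and Tap1 and Psmb9 are read in opposite directions from starts that lie close together. The following promoters, from RefSeq on the build GRCr8, are shown as those of 3 listed genes that lie in the MHC and of an abundant class I gene, RT1-A2, whose pattern over the libraries was among those most like that of Tap1. They were matched by symbol, since the reads had been mapped to the older build Rnor_6.0. Each runs 5′ to 3′ from 250 bases before to 50 bases after the annotated start, with matches to the searched motifs in capitals. The windows are chr20:4668494-4668793 on the minus strand for Tap1, chr20:4668750-4669049 on the plus strand for Psmb9, chr20:4656982-4657281 on the minus strand for Psmb8 and chr20:4872621-4872920 on the plus strand for the class I gene RT1-A2. Those of Tap1 and Psmb9 share 44 bases.
Tap1: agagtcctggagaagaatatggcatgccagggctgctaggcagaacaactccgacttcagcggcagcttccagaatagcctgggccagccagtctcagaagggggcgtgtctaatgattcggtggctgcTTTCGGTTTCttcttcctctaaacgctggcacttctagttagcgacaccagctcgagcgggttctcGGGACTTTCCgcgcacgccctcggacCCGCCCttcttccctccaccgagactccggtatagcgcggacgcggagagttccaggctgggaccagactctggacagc
Psmb9: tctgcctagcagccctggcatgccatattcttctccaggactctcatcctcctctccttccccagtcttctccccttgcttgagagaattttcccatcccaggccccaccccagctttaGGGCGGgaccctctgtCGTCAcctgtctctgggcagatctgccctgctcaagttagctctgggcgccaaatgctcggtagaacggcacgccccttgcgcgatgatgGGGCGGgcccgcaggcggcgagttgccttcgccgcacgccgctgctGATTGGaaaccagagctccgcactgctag
Psmb8: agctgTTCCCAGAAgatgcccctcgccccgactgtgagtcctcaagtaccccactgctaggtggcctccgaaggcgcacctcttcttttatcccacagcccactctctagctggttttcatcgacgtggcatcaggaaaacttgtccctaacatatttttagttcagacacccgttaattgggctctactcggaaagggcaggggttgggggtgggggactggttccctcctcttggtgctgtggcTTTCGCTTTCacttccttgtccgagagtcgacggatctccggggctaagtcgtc
RT1-A2: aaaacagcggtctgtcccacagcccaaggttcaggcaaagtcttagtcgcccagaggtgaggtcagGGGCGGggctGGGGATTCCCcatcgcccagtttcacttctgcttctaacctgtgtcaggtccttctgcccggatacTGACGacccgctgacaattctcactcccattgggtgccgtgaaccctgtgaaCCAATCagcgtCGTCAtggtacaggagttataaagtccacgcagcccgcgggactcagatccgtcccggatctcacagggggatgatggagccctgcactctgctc

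The motifs, searched on both strands, were the core of an interferon-stimulated response element (2 GAAA repeats with 2 bases between them), TTCNNNGAA (the core of a gamma-activated site), GATTGG (the Y box of MHC promoters), TGACG (a partial cyclic AMP response element), GGGCGG (a GC box) and NF-kappaB sites. No motifs overlap each other in the 4 promoters shown. Of the listed genes, 6 had a promoter in the table, all but Raet1e and Nlrc5, and in 5 of these (Ulbp1, B2m, Tap1, Tap2 and Psmb8) a window held the interferon element core, compared with 3.92% of all 33469 promoters of this length. Ulbp1 had 2 windows, of which 1 held it. An NF-kappaB site was found for B2m and Tap1, and in 0.299% of all promoters. The interferon element core and the NF-kappaB site of Tap1 lie between the starts of Tap1 and Psmb9, outside the Psmb9 window. Among the RT1 genes described below, 17 had a promoter, all but RT1-CE7. GATTGG was present in 6 of 6 class II and 7 of 11 class I genes, and in 14.8% of all promoters. An NF-kappaB site was present in 4 of the 11 class I genes (RT1-A1, RT1-A2, RT1-CE4 and RT1-CE10), and the interferon element core in 1 of them, RT1-N3. Class I genes are close copies of each other, so that their matches are not independent, and a match of letters does not show that a factor binds. Only exact matches within these windows were counted, so that the lack of a match does not show that an element is absent.

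The deposited values are normalized counts, that is, reads per gene divided by 1 size factor per library, and between 26070908 and 27649249 whole reads per library were recovered from them. Changes are log2 fold changes of (normalized count + 1) with their standard errors (SE), fitted with limma over all 10 libraries. A gene is called upregulated where its Benjamini-Hochberg adjusted p is below 0.05 and its log2 fold change at least 0.5. Of the 15717 genes tested, 42.3% were called with TSA in either direction and 41.5% with NaB, and 22.5% and 21.2% were called upregulated. All 6 paired listed genes were called upregulated with TSA and 4 with NaB, all but Psmb8 and Psmb9. Without the second NaB-treated library, 2 were called with NaB (Raet1e and Nlrc5). Since the genes were chosen from these contrasts, nothing is read from these counts. Treated libraries lay above all their control libraries in all 6 genes with each inhibitor, as they did in 33.1% of all tested genes with TSA and 40.2% with NaB. Among the 1828 tested genes paired through the same table, they did so in 1779 and 1756, and nothing is read from this either. In bulk RNA, more cells of a type and more RNA per cell cannot be told apart.

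**Figure D1:**
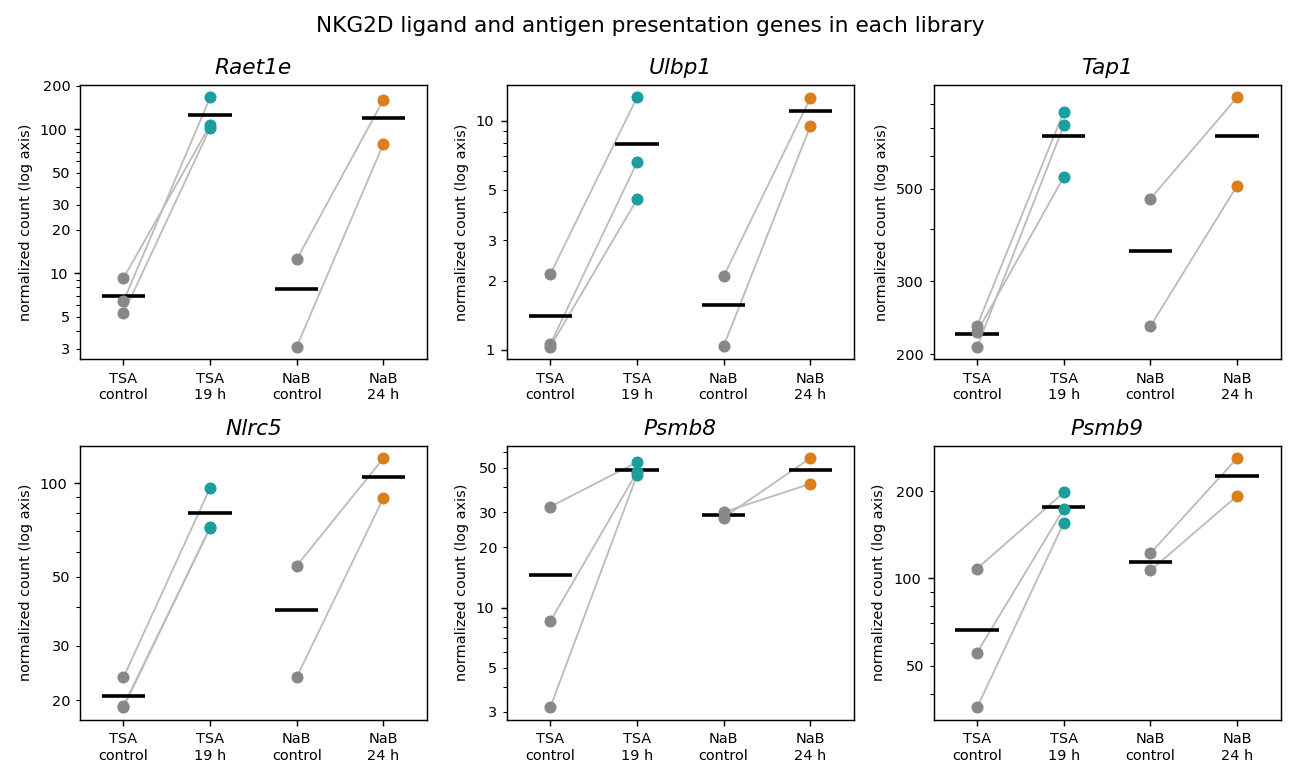
Normalized counts (log axis) of the 6 paired genes in the 10 libraries, with points for libraries, black bars for group means and grey lines joining a control to the treated library of its pair. Pairs of libraries were assumed from consecutive library numbers. In each panel all treated libraries lie above all of their controls. The controls of Psmb8 and Psmb9 spread most in the TSA experiment, and those of Raet1e, Tap1 and Nlrc5 in the NaB experiment.

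Of the NKG2D ligands, Raet1e (ENSRNOG00000040300) was the one with enough reads in the controls for the fold to be sized. Its normalized counts were 5.27, 9.27 and 6.40 in the TSA controls and 102, 107 and 166 with TSA. In the NaB experiment they were 3.11 and 12.5 in the controls and 79.4 and 160.0 with NaB. Treated and control libraries were far apart in both experiments, and even the lowest treated library was several times above the highest control. The group means were 6.98 ± 2.06 (SD, n = 3) and 125 ± 35.7 (SD, n = 3) with TSA, a 17.9-fold difference and a log2 fold change of 3.98 (SE 0.45). With NaB they were 7.82 ± 6.66 (SD, n = 2) and 119.7 ± 57.0 (SD, n = 2), a 15.3-fold difference and a log2 fold change of 3.93 (SE 0.55). This size rests on few libraries, since the log2 fold change with NaB was 3.07 without the first NaB control and 4.79 without the second. The change with NaB minus that with TSA was -0.04 (SE 0.71, adjusted p = 0.988, limma), a standard error too wide to show that both inhibitors act alike.

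Ulbp1 (ENSRNOG00000061316), the second NKG2D ligand, was near the limit of detection. Its reads numbered 1, 1 and 2 in the TSA controls and 7, 5 and 13 with TSA, and 1 and 2 in the NaB controls and 10 and 13 with NaB. It passed the filter on low counts through its treated libraries alone. No control library had more than 3 reads, so that its fold is a lower bound set against 3 reads per library. Against this floor, Ulbp1 was at least 2.51-fold higher in the TSA-treated cultures, whose mean normalized count was 7.91 ± 4.22 (SD, n = 3). In the NaB-treated cultures, with a mean of 11.0 ± 2.18 (SD, n = 2), it was at least 3.52-fold higher. Without the second NaB-treated library, the fitted log2 fold change with NaB was 2.06, compared with 2.25, and Ulbp1 was not called. No size is read from these fitted values, which depend on the number added to the counts. With NaB the log2 fold change was 2.51 with 0.5 added and 1.28 with 5 added.

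Nlrc5 (ENSRNOG00000048222), the class I transactivator, had normalized counts of 19.0, 23.7 and 19.2 in the TSA controls and 72.2, 96.8 and 71.9 with TSA. Its controls were tightly grouped, and the mean rose 3.89-fold, from 20.6 ± 2.66 (SD, n = 3) to 80.3 ± 14.3 (SD, n = 3), a log2 fold change of 1.90 (SE 0.30). In the NaB experiment its counts were 23.8 and 54.3 in the controls and 89.8 and 120.5 with NaB. The second control was well above the first there, and the log2 fold change was 1.50 (SE 0.36). It was 0.93 without the first NaB control and 2.08 without the second, and Nlrc5 was called with NaB in both of these fits.

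Tap1 (ENSRNOG00000000457), a subunit of the peptide transporter, was counted at 209, 227 and 235 in the TSA controls and at 711, 535 and 768 with TSA. The mean rose 3.00-fold, from 223 ± 13.2 (SD, n = 3) to 671 ± 122 (SD, n = 3), a log2 fold change of 1.57 (SE 0.26). In the NaB experiment it was counted at 234 and 474 in the controls and at 509 and 830 with NaB. The second control nearly reached the first treated library, and the log2 fold change was 0.96 (SE 0.31). With the pair of libraries, assumed from consecutive library numbers, as a replicate block, Tap1 was called with NaB (adjusted p = 0.000279, limma). In the fits without the pairs, its call with NaB was the least stable of the 4. The log2 fold change was 0.46 without the first NaB control and 0.61 without the second NaB-treated library, and neither passed, nor did Tap1 pass when the 4 libraries of the NaB experiment were fitted alone.

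The inducible proteasome subunits differed from Tap1 and Nlrc5 in where their controls spread. Psmb9 (ENSRNOG00000000459) had normalized counts of 35.9, 108 and 55.5 in the TSA controls and 156, 198 and 174 with TSA. The NaB controls were at 107 and 122 and the NaB-treated libraries at 193 and 260. The treated libraries of both experiments thus lay above their controls, from which they differed 2.65-fold with TSA (log2 fold change 1.53, SE 0.32) and 1.98-fold with NaB (0.97, SE 0.40). Psmb9 was not called with NaB in this fit, while it was called in the fit with the pair of libraries as a replicate block and with DESeq2 and edgeR. Psmb8 (ENSRNOG00000000456) had normalized counts of 3.17, 31.9 and 8.53 in the TSA controls and 46.0, 53.4 and 47.6 with TSA. It was at 30.0 and 28.2 in the NaB controls and at 41.6 and 55.9 with NaB. Its treated libraries fell in a narrow range, whereas the TSA controls ranged from 3 to 31 reads. The log2 fold change was 2.19 (SE 0.58) with TSA and 0.71 (SE 0.71) with NaB, and Psmb8 was not called with NaB in any fit. The change with TSA was 1.49 without the first TSA control and 2.98 without the second, and for Psmb9 it was 1.17 and 1.95.

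The study grew each control and treated pair on the same plate. Which libraries form a pair was assumed here from library names with consecutive numbers, and the replicate block rests on the same assumption. Within all 5 pairs the treated library was above its own control in all 6 genes, as it was in 35.2% of all tested genes. Nothing is read from this count, since the 6 genes were paired through rows of upregulated genes. For Tap1 the fold within a pair was 3.40, 2.36 and 3.27 with TSA and 2.18 and 1.75 with NaB. The higher second control of Tap1 in the NaB experiment was paired with the higher treated library, so that the pairs differ less in their fold than the libraries do in their level. For Nlrc5 the folds were 3.80, 4.09 and 3.75 with TSA and 3.77 and 2.22 with NaB. Psmb9 ran from 1.83-fold to 4.34-fold over the TSA pairs, with the smallest fold in the pair whose control was highest, and was 1.81-fold and 2.13-fold over the NaB pairs.

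The change with NaB minus that with TSA, which the choice of genes did not use directly, was called in 47 of the 15717 tested genes (0.299%, and 0.0255% for a larger change with NaB) and in 0 of the 5 listed genes with over 3 reads in a control library (limma). Ulbp1 is left out here, since its changes are lower bounds. Without any 1 library, between 1 and 45 genes were called, the fewest without the second NaB control. Across all tested genes, 12.6% had an unadjusted p below 0.05. Psmb8 had the largest such difference of the 5, at -1.48 on the log2 scale (SE 0.91, adjusted p = 0.537). It was followed by Tap1 at -0.60 (SE 0.40, adjusted p = 0.580) and Psmb9 at -0.56 (SE 0.51, adjusted p = 0.701). Nlrc5 was at -0.40 (SE 0.47, adjusted p = 0.776). These values moved when 1 control was left out. Without the first or the second NaB control, that of Tap1 was -1.11 or -0.10, that of Nlrc5 -0.98 or 0.18 and that of Raet1e -0.90 or 0.82, and without the first or the second TSA control that of Psmb8 was -0.78 or -2.28. With the pair as a replicate block, 404 genes were called and still 0 of the 5. An adjusted p above the threshold does not show that the inhibitors changed these genes alike.

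The untreated cultures themselves were compared between the experiments in the same fit, a comparison added after the data were seen. Of all tested genes, 1.55% were called (243 genes), 0.986% as higher in the NaB controls, and 0 of the same 5 listed genes were. The number of called genes was 22 without the second NaB control and 461 without the second TSA control. The NaB controls were higher by 1.46 for Psmb8 (adjusted p = 0.246), 0.92 for Psmb9 (adjusted p = 0.201), 0.78 for Nlrc5 (adjusted p = 0.224) and 0.58 for Tap1 (adjusted p = 0.304) on the log2 scale (limma). Raet1e differed by -0.07 (adjusted p = 0.958). These differences rest on single libraries. Without the second NaB control that of Tap1 was 0.07, that of Nlrc5 0.21 and that of Raet1e -0.93, and without the first they were 1.08, 1.36 and 0.79, not called in either case. Without the first TSA control that of Psmb8 was 0.76 and that of Psmb9 0.55. Without the second TSA control, in which both proteasome subunits were highest, the difference was called for Psmb8 (2.26, adjusted p = 0.0208) and Psmb9 (adjusted p = 0.0265).

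The heavy chains of MHC class I are encoded by RT1 genes of the A, CE, M, N and T groups, and 12 of them could be paired with an identifier. The pairing came from rows of the study's supplementary gene table that hold genes the study called upregulated on these libraries, so that a rise of these genes is not independent evidence. Of the 1828 tested genes that carry a symbol from it, 97.7% were called upregulated with TSA and 87.8% with NaB. All 12 class I genes were called with TSA, with log2 fold changes from 1.45 to 2.68 (median 2.20). With NaB 9 were called and the range was 0.75 to 1.79 (median 1.62). The median over all tested genes was 0.02 with each inhibitor, and that over all tested genes with a symbol was 1.90 and 1.85, so that the class I median lay above it with TSA and below it with NaB. The 3 genes not called with NaB were RT1-CE15, RT1-M6-2 and RT1-T24-4, and all 3 were called with the replicate block. Reads of these near-identical genes may be split or lost among copies, so that the single values are uncertain.

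**Figure D2:**
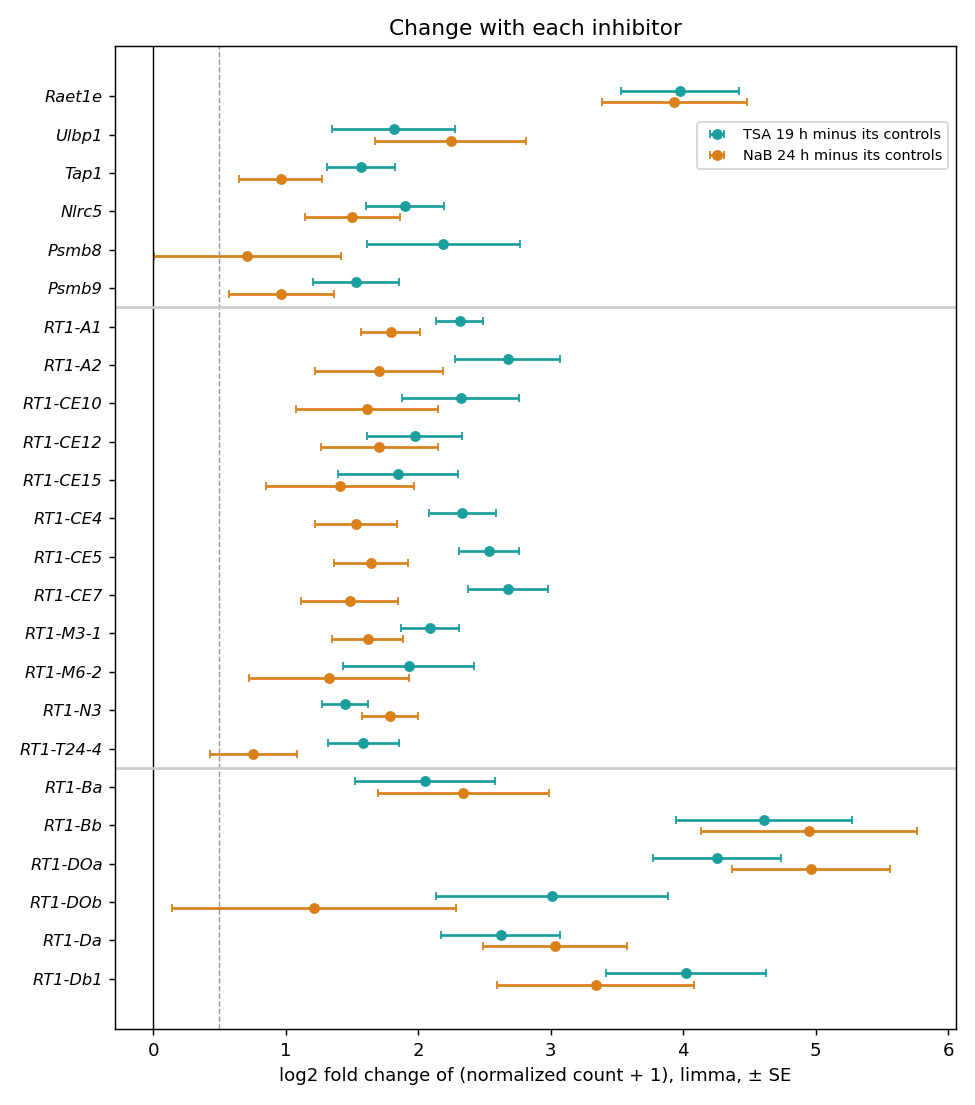
Log2 fold change of (normalized count + 1) on the x axis, with its SE as bars, for the 6 listed genes (top), 12 RT1 class I genes (middle) and 6 RT1 class II genes (bottom), with TSA in turquoise and NaB in orange. The dashed line marks 0.5. All points lie to the right of it. The RT1 genes are shown because the study called them upregulated.

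The classical class I gene RT1-A2 (ENSRNOG00000030712) was at 78.1, 54.6 and 76.8 normalized counts in the TSA controls and at 499.8, 260.5 and 678 with TSA. In the NaB experiment it was at 112 and 262 in the controls and at 414 and 757 with NaB. Within each experiment the treated libraries lay above the controls, and the log2 fold changes were 2.67 (SE 0.39) with TSA and 1.70 (SE 0.48) with NaB. RT1-A1 (ENSRNOG00000038999) ran from 70.4 to 108 in the TSA controls, 408 to 521 with TSA, 117 to 156 in the NaB controls and 451 to 490 with NaB. RT1-M3-1 (ENSRNOG00000000763), a nonclassical class I gene and, with RT1-A2 and RT1-A1, one of the 3 most abundant, was at 115 ± 35.9 (SD, n = 3) in the controls and 481 ± 55.9 (SD, n = 3) with TSA, and at 139 ± 42.0 (SD, n = 2) and 421 ± 4.86 (SD, n = 2) in the NaB experiment. RT1-CE7 (ENSRNOG00000031090) had the largest log2 fold change with TSA, 2.68 (SE 0.30), and 1.48 (SE 0.37) with NaB. With NaB the largest log2 fold change was that of RT1-A1, 1.79 (SE 0.22). The difference of RT1-CE7 between the inhibitors, -1.19 (SE 0.47, adjusted p = 0.339, limma), did not pass, and with the replicate block its adjusted p was 0.0524. Summed over the 12 genes, the TSA controls held 520.1, 663 and 465 normalized counts and the TSA-treated libraries 2768, 2487 and 2733. The sums were 767 and 1188 in the NaB controls and 2677 and 3074 with NaB.

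Genes of MHC class II present peptides of ingested proteins and are known from microglia and other specialised cells. The 6 RT1 class II genes that could be paired stayed below 10 normalized counts in every untreated culture, RT1-DOb apart. Of these 6 genes, 6 were called with TSA and 5 with NaB. These counts are near the 97.7% and 87.8% called upregulated among all tested genes with a symbol, and nothing is read from them. The medians of the fitted log2 fold change were 3.52 and 3.19. Both medians take in lower bounds, since RT1-DOa and RT1-Da had 3 or fewer reads in every control. RT1-Bb had so few in the TSA controls. RT1-Db1 (ENSRNOG00000033215), the chain of an RT1-D molecule, went from 4.22, 9.27 and 3.20 normalized counts to 117, 39.8 and 198 with TSA. With NaB it went from 8.28 and 8.35 to 51.0 and 170.0, so that treated libraries differed severalfold among themselves but stayed above all controls. RT1-Bb (ENSRNOG00000032708), at 3 or fewer reads in the TSA controls, reached 58.8 ± 18.9 (SD, n = 3) normalized counts and was at least 18.7-fold higher in the treated cultures. RT1-DOa (ENSRNOG00000026762) had at most 1 read in any control, and was at least 7.63-fold higher under TSA. Under NaB, RT1-DOa was at least 10.7-fold higher, while RT1-Bb was at 0 and 4.18 normalized counts in the NaB controls and at 56.7 and 84.8 with NaB. RT1-DOb (ENSRNOG00000000454) was at 30.6, 33.0 and 1.07 in the TSA controls and was not called with NaB, where its controls were at 73.5 and 33.4 and its treated libraries at 148 and 91.6. Ciita, the class II transactivator, had 0 reads in each TSA control, which leaves room for up to 3 reads in a library, and 7.78 ± 3.23 (SD, n = 3) normalized counts with TSA. Of 9 class II accessory genes, Ciita, Cd74, Cd80 and Cd40 were paired and all 4 were called with both inhibitors. Ciita, with 3 or fewer reads in every control, passed the filter on low counts through its treated libraries alone. The invariant chain gene Cd74 had a mean of 6.64 ± 1.50 (SD, n = 3) in the TSA controls, and TSA-treated libraries a mean of 26.3 ± 4.94 (SD, n = 3). In the NaB experiment its means were 11.4 ± 5.81 (SD, n = 2) and 62.4 ± 21.4 (SD, n = 2). The costimulatory receptor gene Cd40 was the most abundant of them, at 5.24 ± 2.74 (SD, n = 3) without and 111 ± 20.5 (SD, n = 3) under TSA, and at 18.7 ± 2.83 (SD, n = 2) and 132.5 ± 21.1 (SD, n = 2) in the NaB experiment.

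**Figure D3:**
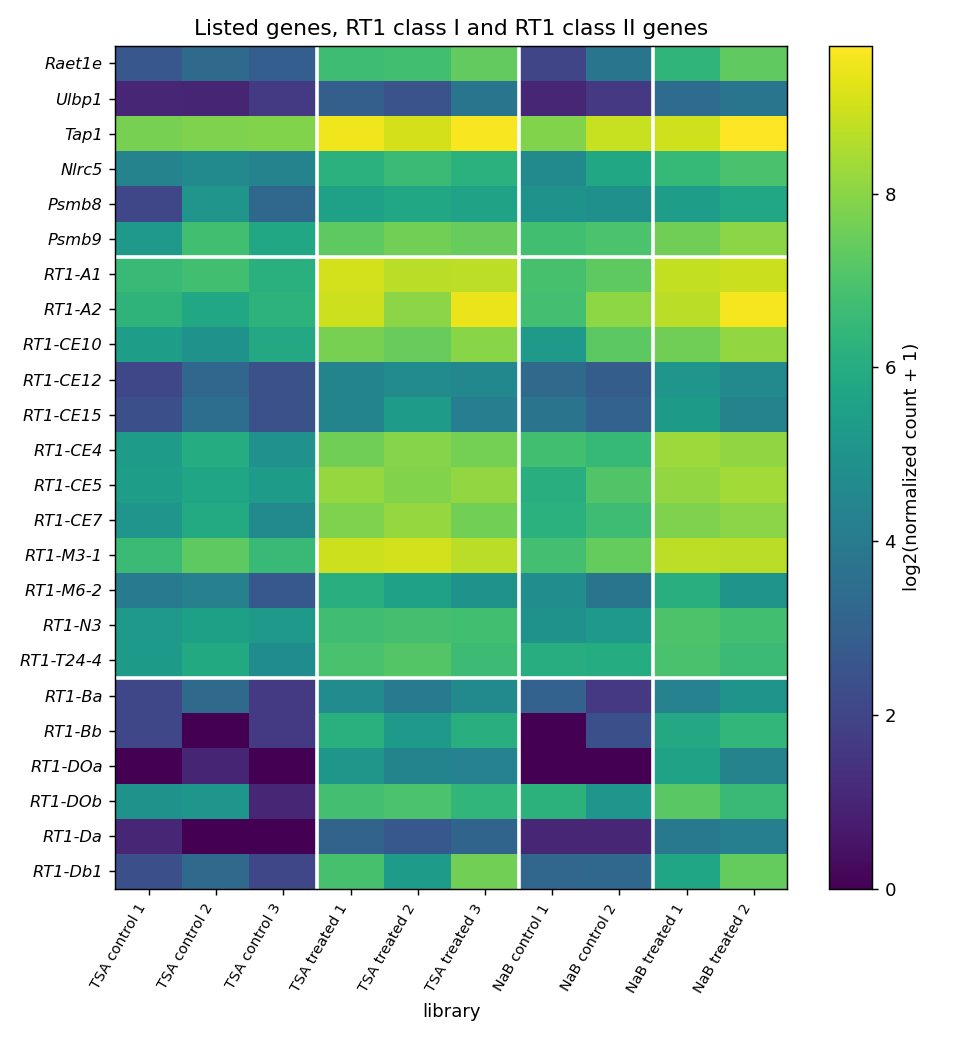
Levels of the 6 listed genes, 12 RT1 class I and 6 RT1 class II genes (rows) in the 10 libraries (columns), as log2(normalized count + 1), with brighter colours for higher levels. Treated columns are brighter than their control columns in every row. In the second NaB control, Tap1, Nlrc5, RT1-A2 and RT1-CE10 are brighter than in the first.

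The NaB control libraries differed in several of these genes. The second was above the first by at least 0.5 on the log2 scale in 3 of these 5 listed genes (Raet1e, Tap1 and Nlrc5), 4 of the 12 class I genes and 1 of the 6 class II genes (RT1-Bb, at 0 and 4 reads), and in 9.38% of all tested genes. It was below the first by as much in 0 listed, 3 class I (RT1-M6-2, RT1-CE15 and RT1-CE12) and 2 class II genes (RT1-Ba and RT1-DOb), and in 7.64% of all tested genes. RT1-CE10 (ENSRNOG00000050210) was at 36.2 and 152 normalized counts in these controls and RT1-CE5 (ENSRNOG00000000723) at 69.4 and 132, besides Tap1, Nlrc5 and RT1-A2 above. Psmb8 differed by -0.09 and Psmb9 by 0.19 between the same libraries, RT1-M6-2 by -0.99 and RT1-Ba by -1.42. The median over all tested genes was 0.01. The direction of all 6 listed genes with NaB was the same without either control.

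**Figure D4:**
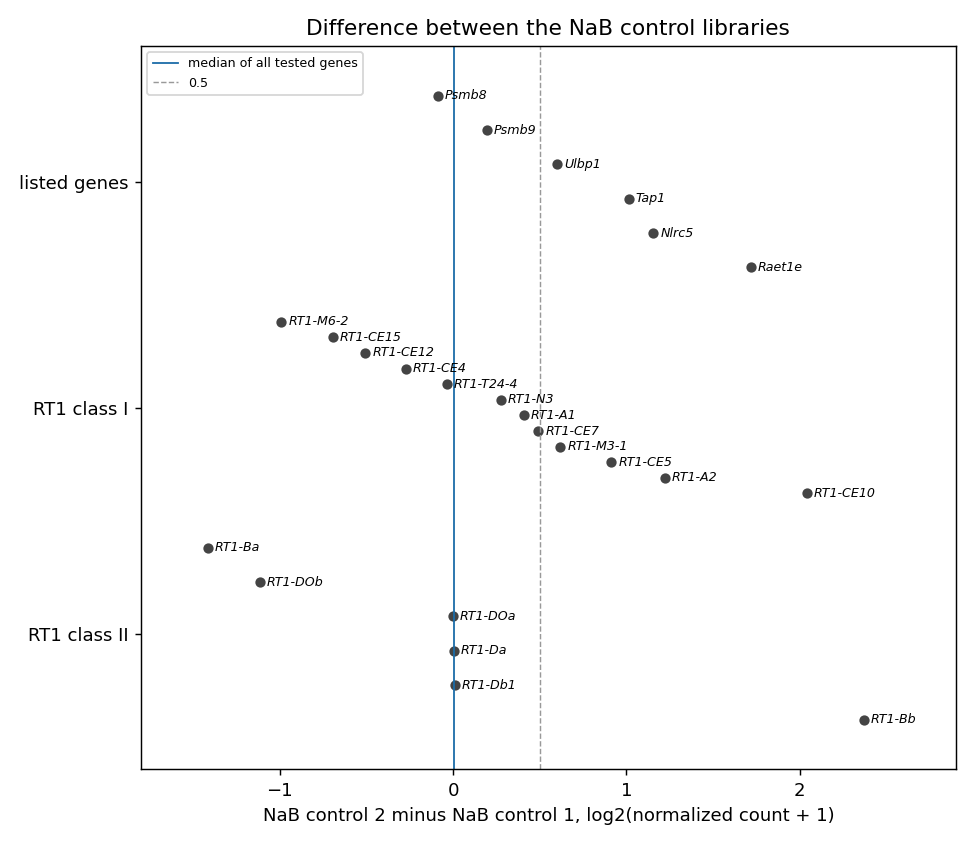
Second minus first NaB control, as log2(normalized count + 1) on the x axis, for each listed, RT1 class I and RT1 class II gene, with 1 point a gene. The blue line is the median of all tested genes (0.01) and the dashed line marks 0.5. Points right of the dashed line include Raet1e, Nlrc5, Tap1, RT1-A2 and RT1-CE10.

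Further genes around this pathway came from lists of which only part could be paired with an identifier. As for the RT1 genes, pairing was through rows of upregulated genes, of which 97.7% were called with TSA and 87.8% with NaB, so that calls of all paired members say nothing particular of a list. Of 17 ligands of natural killer cell receptors, 5 were paired and 4 tested, and all 4 were called with both inhibitors. Of these, Ulbp1, Clec2d and Clec2dl1 had 3 or fewer reads in every control and passed the filter on low counts through their treated libraries alone. Clec2d (ENSRNOG00000048726), whose product is a ligand of inhibitory Klrb1 receptors, had at most 1 read in any control. It was at least 12.8-fold higher in TSA-treated and at least 7.37-fold higher in NaB-treated cultures, and reads of its near copy Clec2dl1 may be shared with it. Of 6 MHC class I-like genes outside the RT1 complex, 3 were paired and all 3 were called with both inhibitors. Mr1 (ENSRNOG00000003522), which presents vitamin metabolites of microbes to T cells, was at 9.49, 19.6 and 7.47 normalized counts in the TSA controls and 267, 285 and 228 with TSA. It was at 18.6 and 33.4 in the NaB controls and 359 and 385 with NaB. These groups were widely separated, by 21.4-fold with TSA and 14.3-fold with NaB. Cd1d1, which presents lipids, was 4.65-fold and 3.33-fold higher.

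Genes of interferon signalling and interferon-stimulated genes, of which 8 of 36 were paired, were called with both inhibitors in 8 of 8. Their median log2 fold change was 2.25 with TSA and 2.01 with NaB, and that of all tested genes with a symbol, of which 97.7% and 87.8% were called upregulated, was 1.90 and 1.85. The RNA sensor gene Ifih1 (ENSRNOG00000006227), the most abundant, had means of 47.9 ± 6.29 (SD, n = 3) in the TSA controls and 136 ± 16.0 (SD, n = 3) in the treated libraries. In the NaB experiment its means were 84.2 ± 3.91 (SD, n = 2) and 176.5 ± 9.66 (SD, n = 2). Bst2, which tethers virus particles, had the largest fitted log2 fold change of the 8 with both inhibitors, 3.97 (SE 0.76) and 2.72 (SE 0.93). Isg20 had the smallest, 1.35 (SE 0.20) and 0.71 (SE 0.24). The reads of Bst2 in the TSA controls were 6, 9 and 0. With NaB the fold of the group means was 6.01 for Bst2 and 6.11 for Usp18, so that this rank holds for the fitted values only. Usp18, Oas2 and Oasl had 3 or fewer reads in every TSA control, as Oasl had in the NaB controls. Their changes there are lower bounds, so that their rank below Bst2 is not known. Of 15 regulators of MHC genes, Nlrc5, Ciita and Irf8 were paired, and all 3 were called with both inhibitors. Irf8, a factor of microglia and other myeloid cells, was at 7.38, 24.7 and 0 in the TSA controls and 43.1, 60.6 and 30.1 with TSA. None of the 14 constitutive proteasome genes was paired, and of 14 peptide-loading genes Tap1 alone was, so that it is not known here whether they moved.

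Markers of other cell types were paired too rarely for a check of the cells' identity. Of 17 microglial markers, Tmem119 alone was paired, at 2.11, 1.03 and 5.33 normalized counts in the TSA controls, 5.63, 4.52 and 1.94 with TSA, 1.04 and 2.09 in the NaB controls and 15.1 and 11.6 with NaB. It was called with NaB and not with TSA, at few reads in every library, and the part of microglia in the results was not tested. Of 14 markers of lymphocytes and natural killer cells, Cd2 was paired, but it did not pass the filter on low counts. It had 0 reads in every TSA control and 5, 3 and 3 with TSA, near the floor of 3 reads. In the NaB experiment it had 0 and 1 reads in the controls and 12 and 5 with NaB. Of 8 vascular markers, Flt1, Kdr and Rgs5 were paired and all 3 were called with both inhibitors, as were nearly all genes that could be paired. Flt1 was at least 30.9-fold higher under TSA, and Kdr, the most abundant, was 5.97-fold and 2.32-fold higher. Col1a1, the only one of 6 fibroblast markers that was paired, was at 909, 47.4 and 1379 in the TSA controls and at 798, 696 and 879 with TSA. It was at 149 and 137 in the NaB controls and at 876 and 961 with NaB, and was called with neither inhibitor, but with NaB in the fit with the replicate block. The 3 controls with low Col1a1 (the second TSA control and both NaB controls) were those with the higher Psmb8 and Psmb9, and the part of this in their levels was not tested. None of the markers of neurons (13), astrocytes (9) or oligodendrocytes (11) was paired, and the part of cell composition in the results was not tested.

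The genes whose pattern was most like that of Raet1e over the 10 libraries, among 1827 tested genes with a symbol, were Lef1 (Pearson's r = 0.995), Slc1a5 (r = 0.993) and Irx6 (r = 0.989). For Tap1 they were Lrig3 (r = 0.985), RT1-A2 (r = 0.975) and Zc3hav1 (r = 0.973). These correlations are of log2(normalized count + 1) over libraries that share the split into treated and control cultures. Zc3hav1 had mean normalized counts of 69.3 and 295 in the TSA experiment and 141 and 247 in the NaB experiment, and Lrig3 of 102 and 251, and 157 and 270 (controls first).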

How the data were processed

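RNA was sequenced from 10 libraries of rat cortical cultures in 4 groups. Per the labels and the methods, the authors aligned reads to Rnor_6.0 with STAR 2.7.9a, counted them per gene with featureCounts 2.0.1 and normalized with DESeq2 1.29. The deposited signal is thus a count divided by a size factor. The smallest value above 0 of a library was taken as 1 read, and 100% of values above 0 then were whole reads (tolerance 0.01), 26070908 to 27649249 a library. Strand use and treatment of multimapping reads are not given in the sources used here. Bounds set against 3 reads cover counting error only.

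filterByExpr (minimum count 10) kept 15717 of 32883 genes. limma 3.58.1 (R 4.3.3) was fitted to log2(value + 1) with a variance trend, two-sided, and edgeR 4.0.16 and DESeq2 1.42.0 to the recovered reads as alternatives, which called 6657 (edgeR) and 6435 (DESeq2) genes with TSA and 6546 and 6345 with NaB. Fits were tested on simulated data, of which no outcome is given here. The listed genes and lists were chosen with earlier results of these data known, and the text names all listed genes and, of each list, at least the most abundant and the most changed genes. Symbols came from the study's supplementary table, of which only identifiers were used, and its fold changes and p-values were not. Libraries of an assumed pair deviated together from their group means (r = 0.284, 0.392 and 0.314 for TSA and 0.342 for NaB). The study took replicates from different cultures, and p-values measure the spread between these samples.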

Additional observations from a re-analysis of the deposited data

How the results depend on the processing

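All 6 listed genes kept their direction with both inhibitors in all alternatives in which they were tested. With TSA no call changed in the fits in which a gene was tested. Ulbp1 was not tested without the third TSA-treated library, with the TSA libraries alone or at a mean of at least 50, nor Psmb8 at that mean, and 5, 5 and 4 genes were called there. With NaB, 114 of 128 alternative values kept their call. Psmb9 gained it in 9, with DESeq2, edgeR, library totals and the replicate block among them, and Tap1 and Ulbp1 lost it in 5 together. The number called with NaB was 2 to 5 over the fits without 1 library. A minimum log2 fold change of 1 left 3416 genes called with TSA and 3450 with NaB, while the replicate block gave 6958 and 6950, compared with 6644 and 6521. Scaled by library totals, 4675 of 6841 called genes were upregulated with TSA, compared with 3540 of 6644, and 3923 of 6499 with NaB, compared with 3337 of 6521. The listed genes called were then 6 and 5.

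For the difference between the inhibitors, 250 genes were called with DESeq2, 71 with library totals, 31 without the filter on low counts, 404 with the replicate block and 1 to 45 without 1 library. Between the control groups the numbers were 587 with DESeq2, 104 without the filter, 105 at a minimum of 1, and 22 to 461 without 1 library. The causes were not tested. With 3 or fewer reads in a control, as for Ulbp1, depth limits the fold.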
